A study of Mus musculus with 4 samples.

Results

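The mitochondrial ribosomal proteins build the ribosome that works inside mitochondria. The genes were taken as all probe sets whose platform annotation gives exactly 1 symbol of the form Mrpl or Mrps followed by a number, with or without a letter, and the brightest probe set stood for each gene. This gave 85 probe sets and 77 genes of the 19938 genes tested, 48 of them named for the large subunit (Mrpl) and 29 for the small subunit (Mrps). The tissue was whole brain of C57BL/6J fetuses at embryonic day 16, and expression was read on Affymetrix arrays whose probe sets sample the whole transcript. The ethanol group was 2 pools of fetal brain from females injected with ethanol in saline at 2.5 g per kg on gestational days 14 and 16, and the control group was 2 pools from females injected with the same volume of saline alone. Each pool joined RNA of 3 mice and went to 1 array, 4 arrays and 12 mice in all, and the labels name no allele in either group. Since the labels do not tie pools to litters, p-values measure only the spread between these pools.

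Mitochondria translate the few messages of their own DNA on a ribosome of bacterial descent. Its RNAs are transcribed from mitochondrial DNA, while all of its proteins are encoded in the nucleus, made in the cytosol and imported. The small subunit holds the messenger RNA and checks the match of codon and tRNA, and the large subunit joins the amino acids and feeds the nascent chain into the inner membrane. Its products are core subunits of the respiratory chain and the ATP synthase. Some members have a bacterial counterpart, and others are found only in mitochondrial ribosomes.

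Neuronal markers were bright on all 4 arrays, and 1 control pool stood apart in markers of another tissue. Over 12 neuronal markers the median log2 level was 12.4 on ethanol 1, 12.4 on ethanol 2, 12.3 on control 1 and 12.4 on control 2. None of the 12 neuronal, 12 skeletal muscle or 12 endothelial and meningeal markers lay below the lower quartile of every array. Of the liver markers 3 of 7 did, and of the red blood cell markers 4 of 9. Over 12 skeletal muscle markers the median was 7.47 and 8.30 in ethanol against 9.69 and 7.46 in control, so control 1 was highest, and 12 of 12 were lower on average in ethanol. Over 12 endothelial and meningeal markers it was 8.97 and 9.15 in ethanol against 9.40 and 9.003 in control, again with 12 of 12 lower on average in ethanol. The pools also differed in sex-linked RNA: Xist, which silences an X chromosome in females, had a log2 level of 11.96 and 12.80 in ethanol against 6.10 and 12.84 in control. The lower quartile of all deposited values was 6.55 on ethanol 1 and 6.46, 6.45 and 6.47 on ethanol 2, control 1 and control 2. The part of these differences in the results was not tested, and in bulk tissue fewer cells of a type and less RNA per cell cannot be told apart.

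None of the 77 genes lay among the dimmest values. No member lay below the lower quartile on any array, mean log2 levels ran between 7.12 and 10.9, and 63 of the 77 were at or above the median gene. Levels of different probe sets depend on their probes, so the members are compared only between arrays. The range over the 4 arrays had a median of 0.17 on the log2 scale and was widest, at 0.81, in Mrps26. Between the ethanol and control means 51 of 77 members differed by less than 0.1. The lower and upper quartiles of that difference were -0.11 and 0.029 over the members, and -0.053 and 0.068 over all genes.

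No mitochondrial ribosomal protein gene passed the test between ethanol and control. Limma called 0 of 77 members at a Benjamini-Hochberg adjusted p under 0.05, as it called 0 of all 19938 genes (0%), and the smallest adjusted p among the members was 0.980. Before adjustment 3 members (3.90%), Mrpl40, Mrps28 and Mrpl54, were under 0.05, beside 587 of all genes (2.94%). All 3 were lower in ethanol, beside 1.36% of all genes in that direction, and 0 were higher, beside 1.58%. The ordinary test without shared variance gave 7 members, beside 3.85% of all genes. With the replicate number as a block there were 2, beside 1.34%. A crossed pairing of arrays, added after the data were seen, gave 8, beside 7.34%. The median log2 difference, ethanol minus control, was -0.029 over the members and 0.0088 over all genes, and 49 of 77 members (63.6%) were below 0, beside 45.8% of all genes. Over the 9969 genes at or above the median level, where most members lie, the median was -0.020, 59.5% were below 0 and 3.88% were under 0.05 before adjustment, all close to the members' values. The median standard error of a member's difference was 0.077, so differences of the size seen in most members are not resolved by 2 arrays a group.

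**Figure D1:**
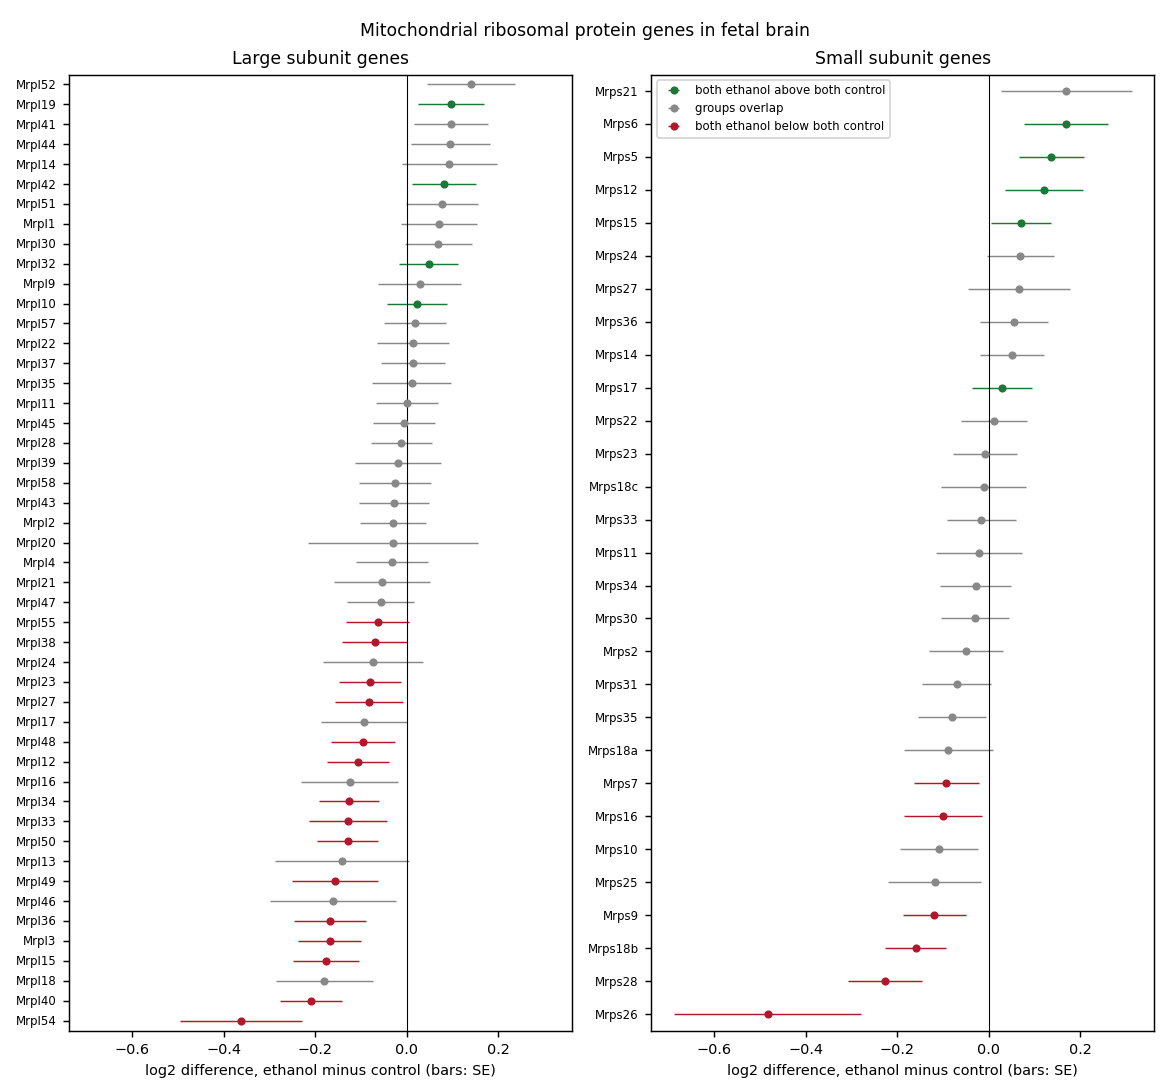
Log2 difference, ethanol minus control, of each of the 48 large subunit genes (left) and 29 small subunit genes (right), with the standard error of the limma fit. Mrps26 at -0.48 and Mrpl54 at -0.36 lie far from the others, and no member is above 0.17.

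Mrps26, a protein of the small subunit without a bacterial counterpart, had the largest difference of all members. Its log2 level was 6.78 on ethanol 1, 7.43 on ethanol 2, 7.59 on control 1 and 7.59 on control 2. The groups did not overlap, but the ethanol pools differed by -0.65 from each other (ethanol 1 minus ethanol 2), more than the -0.48 ± 0.20 (SE) between the group means (limma adjusted p = 0.980). Without ethanol 1 the difference was -0.16, and without ethanol 2 it was -0.81.

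Mrpl54, a large subunit protein found only in mitochondrial ribosomes, showed the same order of arrays. Its log2 level was 8.64 on ethanol 1 and 9.03 on ethanol 2, against 9.23 on control 1 and 9.16 on control 2. The difference was -0.36 ± 0.13 (SE; limma adjusted p = 0.980), and it was -0.17 without ethanol 1 and -0.55 without ethanol 2. Mrps26 and Mrpl54 were the only 2 members past a fold of 1.2, beside 2.31% of all genes. Both were lower in ethanol, beside 1.57% of all genes past that fold in the lower direction. No member was past it in the higher direction, beside 0.742% of all genes.

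In other members at the low end the ethanol pools lay close together. Mrpl40, whose human gene lies in the interval lost in DiGeorge syndrome, had log2 levels of 10.21 and 10.28 in ethanol against 10.45 and 10.45 in control. Its difference of -0.21 ± 0.07 (SE) had the smallest p of all members (limma adjusted p = 0.980) and ranged from -0.24 to -0.18 with an array left out. Mrps28, the counterpart of bacterial ribosomal protein S1, had 7.83 and 7.89 in ethanol against 8.16 and 8.01 in control, a difference of -0.23 ± 0.08. Both genes thus had separate groups with the ethanol pools within 0.1 of each other. Of all genes, 14.0% had separate groups in the lower direction.

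Of the remaining large subunit members at the low end, Mrpl3 is a conserved protein near the catalytic core, and changes in the human gene cause cardiomyopathy. Mrpl3 had log2 levels of 10.34 and 10.41 in ethanol against 10.52 and 10.56 in control, a difference of -0.17 ± 0.07 (SE). Mrpl15, a core protein with a bacterial counterpart, had 9.26 and 9.35 in ethanol against 9.50 and 9.45 in control, a difference of -0.18 ± 0.07. In both genes all ethanol values were below all control values, beside 14.0% of all genes. Low-end members were picked by their difference, so separate groups are more likely among them. Mrpl18, which in human cells carries a cytosolic ribosomal RNA into mitochondria, had 9.06 and 9.28 in ethanol against 9.43 and 9.26 in control, and its groups overlapped. Its difference of -0.18 ± 0.11 was -0.070 without ethanol 1.

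In the small subunit, Mrps18b is 1 of 3 paralogs that descend from bacterial S18. Mrps18b had log2 levels of 9.35 and 9.38 in ethanol against 9.51 and 9.55 in control, a difference of -0.16 ± 0.07 (SE) with separate groups. Its paralog Mrps18a stood at -0.09 ± 0.10 and Mrps18c at -0.01 ± 0.09, and the groups overlapped in both. Mrps18c occupies the place of S18 in the small subunit, while structures of the mammalian ribosome place Mrps18a in the large subunit. Mrps9, a conserved small subunit protein, had 8.71 and 8.63 in ethanol against 8.79 and 8.80 in control, again without overlap. Beside Mrps18b and Mrps9, 14.0% of all genes were lower in ethanol without overlap. Mrps25, found only in mitochondria, had 8.98 and 9.18 in ethanol against 9.28 and 9.11 in control, with overlap, and its difference of -0.12 ± 0.10 was -0.018 without ethanol 1.

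At the high end, the largest values belonged to small subunit members. Mrps21, the counterpart of bacterial S21, had log2 levels of 10.59 and 10.20 in ethanol against 10.32 and 10.14 in control, a difference of 0.17 ± 0.14 (SE) that turned to -0.025 without ethanol 1. Mrps6, the counterpart of S6, had 9.66 and 9.44 in ethanol against 9.38 and 9.37 in control, a difference of 0.17 ± 0.09 with separate groups that was 0.058 without ethanol 1. Ethanol 1 was the highest array in both, as it was the lowest in Mrps26 and Mrpl54. Mrps5, whose reduction lengthens life in the worm Caenorhabditis elegans, had 10.17 and 10.13 in ethanol against 9.97 and 10.06 in control, a difference of 0.14 ± 0.07. Mrps12, a protein of the decoding site, had 7.27 and 7.08 in ethanol against 7.06 and 7.05 in control, and Mrps15, a conserved protein that binds the small ribosomal RNA, had 10.51 and 10.49 in ethanol against 10.44 and 10.42 in control. The difference of Mrps12, 0.12 ± 0.09, was 0.027 without ethanol 1. All ethanol values of Mrps5, Mrps12 and Mrps15 were above all control values, beside 17.4% of all genes. These members were picked by their high differences, so separate groups are more likely among them.

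In the large subunit the high end was made of Mrpl52, Mrpl19, Mrpl41, Mrpl44 and Mrpl14, at 0.094 to 0.14 on the log2 scale. Mrpl52, found only in mitochondria, had log2 levels of 10.28 and 10.06 in ethanol against 9.99 and 10.07 in control, a difference of 0.14 ± 0.10 (SE) that was 0.030 without ethanol 1 and 0.25 without ethanol 2. Mrpl19, a conserved protein at the interface of the subunits, had 9.44 and 9.39 in ethanol against 9.37 and 9.27 in control. It was the only gene of these 5 with separate groups, beside 17.4% of all genes in the higher direction. Mrpl44, a protein related to ribonuclease III that is mutated in human cardiomyopathy, stood at 0.096 ± 0.086, Mrpl41 at 0.097 ± 0.082 and Mrpl14, part of the intersubunit bridge, at 0.094 ± 0.105. Without ethanol 1 the value of Mrpl14 was -0.043 and that of Mrpl44 0.021. Mrpl41 was at 0.038 without ethanol 2 and Mrpl19 at 0.045 without control 2.

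**Figure D2:**
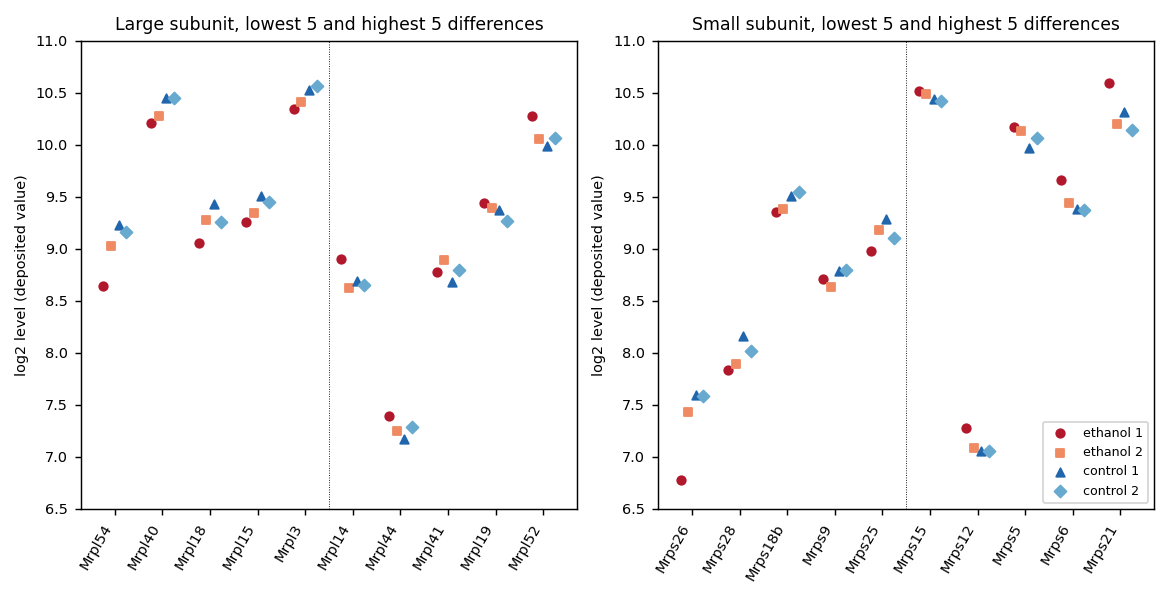
Deposited log2 level on each of the 4 arrays for the 5 lowest and 5 highest differences of the large (left) and small (right) subunit, with a dotted line between the ends. Ethanol 1 is the lowest array in 9 of the 10 genes left of the lines and the highest in 9 of the 10 genes right of them. The genes were picked by their difference, so an ethanol array tends to lie at the end.

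Of the 19 members picked for their roles, whatever their values, 13 differed by less than 0.1 on the log2 scale. The other 6 were Mrpl3, Mrps18b, Mrps5 and Mrps12, described above, with Mrpl12 and Mrps16. Mrpl12 forms the flexible stalk that recruits translation factors and also binds the mitochondrial RNA polymerase. Mrpl12 had log2 levels of 8.99 and 9.001 in ethanol against 9.14 and 9.07 in control, a difference of -0.11 ± 0.07 (SE) with separate groups. Mrpl11, at the base of that stalk, stood at 3e-05 ± 0.068. Among genes whose defects cause mitochondrial translation disease in humans, Mrps16 stood at -0.10 ± 0.09, Mrps7 at -0.093 ± 0.071, Mrps2 at -0.050 ± 0.080, Mrps34 at -0.028 ± 0.078 and Mrps22 at 0.011 ± 0.072. Of these 5, Mrps16 and Mrps7 had separate groups, lower in ethanol, beside 14.0% of all genes. Mrps16 was at -0.0071 without ethanol 2, and Mrps7 at -0.044 without control 1. Mrps27, a pentatricopeptide repeat protein, stood at 0.066 ± 0.111, and Mrps30, which structures place in the large subunit in spite of its name, at -0.030 ± 0.074. Mrps36, now known as a part of the oxoglutarate dehydrogenase complex and not of the ribosome, stood at 0.055 ± 0.074.

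The ends of the range can be set beside the sequence at the gene starts. RefSeq promoter windows (build GRCm38.p6, 250 bases before to 50 after a start) were at hand for 68 of the 77 members, 74 windows in all, and the 2 lowest and 2 highest members with a window are printed, as is the start that Mrps11 and Mrpl46 share. Capitals mark CCGGAAG or ATGGCGG, the words searched for GABPA and YY1, on either strand, both being factors long tied to nuclear genes of mitochondria.
Mrps26, chr2:130563507-130563806, plus strand: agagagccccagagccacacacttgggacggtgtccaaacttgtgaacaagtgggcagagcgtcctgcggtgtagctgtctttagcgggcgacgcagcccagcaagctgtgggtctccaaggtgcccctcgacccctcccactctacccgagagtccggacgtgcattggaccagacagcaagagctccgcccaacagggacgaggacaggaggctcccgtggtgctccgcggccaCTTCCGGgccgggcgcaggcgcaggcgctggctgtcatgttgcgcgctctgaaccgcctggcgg
Mrpl40, chr16:18876588-18876887, minus strand: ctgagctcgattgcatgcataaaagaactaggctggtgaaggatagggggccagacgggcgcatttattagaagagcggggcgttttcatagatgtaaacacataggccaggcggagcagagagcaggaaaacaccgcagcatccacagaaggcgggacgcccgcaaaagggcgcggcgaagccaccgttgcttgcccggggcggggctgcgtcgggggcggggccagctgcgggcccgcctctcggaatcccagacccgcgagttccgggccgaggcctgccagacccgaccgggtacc
Mrps6, chr16:92058086-92058385, plus strand: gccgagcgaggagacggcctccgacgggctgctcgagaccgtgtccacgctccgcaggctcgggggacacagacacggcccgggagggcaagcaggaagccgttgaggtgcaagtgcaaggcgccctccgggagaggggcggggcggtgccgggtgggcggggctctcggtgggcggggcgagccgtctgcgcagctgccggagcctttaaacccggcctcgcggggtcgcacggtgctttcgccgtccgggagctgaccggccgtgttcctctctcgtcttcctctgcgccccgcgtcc
Mrps21, chr3:95871465-95871764, minus strand: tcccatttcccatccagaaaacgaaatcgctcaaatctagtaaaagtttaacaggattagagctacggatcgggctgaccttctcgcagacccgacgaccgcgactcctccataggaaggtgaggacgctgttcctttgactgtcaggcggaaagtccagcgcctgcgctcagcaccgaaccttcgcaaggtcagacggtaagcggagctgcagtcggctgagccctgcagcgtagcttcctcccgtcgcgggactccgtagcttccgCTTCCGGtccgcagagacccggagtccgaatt
Mrps11, chr7:78782881-78783180, plus strand: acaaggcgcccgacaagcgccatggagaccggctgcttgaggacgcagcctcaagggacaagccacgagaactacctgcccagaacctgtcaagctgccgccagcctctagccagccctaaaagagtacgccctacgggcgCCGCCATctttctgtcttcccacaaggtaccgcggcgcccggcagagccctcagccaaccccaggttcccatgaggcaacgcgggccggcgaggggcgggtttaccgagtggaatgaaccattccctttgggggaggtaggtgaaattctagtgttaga

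The GABPA word stood in the windows of Mrps26, the lowest member, and of Mrps21, the highest, and in neither of the other pair. Over the family it was in 25 of 74 windows (33.8%), beside 11.6% of 21263 windows of protein-coding genes and 8.86% of all 32851 windows. The YY1 word was in 12 windows (16.2%, beside 5.25% of protein-coding and 4.06% of all windows), among them that of Mrps11. Both strands were searched, the words do not contain each other, and a match is a description of the letters only.

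Many members start near a gene that runs the other way. An opposite start within 1000 bases upstream was found for 28 of 74 member windows (37.8%), beside 12.3% of windows of protein-coding genes. Windows were counted, so Mrpl2 enters more than once. Mrps11 of the small subunit and Mrpl46 of the large subunit start 42 bases apart, head to head. Mrpl46 had log2 levels of 7.83 and 8.14 in ethanol against 8.01 and 8.28 in control, and Mrps11 had 8.01 and 8.05 in ethanol against 7.94 and 8.16 in control. The groups overlapped in both genes of the pair, at differences of -0.16 for Mrpl46 and -0.022 for Mrps11. Of 24 members with a measured partner, 15 had the same sign of difference as the partner, with Mrps11 and Mrpl46 counted from either side, and the partners ran between -0.16 and 0.11. Opposite Mrpl40, at -0.21, the histone chaperone gene Hira stood at 0.043, and opposite Mrps26, at -0.48, 4930473A02Rik stood at -0.013.

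Separate groups were more frequent in the lower than in the higher direction among the members. All ethanol values were below all control values in 21 of 77 members (27.3%), beside 14.0% of all genes and 20.8% of the 9969 brighter genes. They were above in 9 members (11.7%), beside 17.4% of all genes and 13.9% of the brighter genes. Of the respiratory chain genes described below, 30.5% were lower and 14.6% higher without overlap. Of the cytosolic ribosomal protein genes, 15.3% were lower and 8.47% higher. The large subunit had 15 lower and 4 higher of 48, and the small subunit 6 lower and 5 higher of 29. This balance moved with scaling: after quantile normalization once more 13 members were lower and 14 higher, beside 13.9% and 18.2% of all genes, and with each array centred on its median 15 were lower and 11 higher, beside 11.9% and 18.7%.

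Ethanol 1 held the lowest of the 4 values in 46 of 77 members (59.7%), beside 24.9% of all genes and 39.9% of the brighter genes, and ethanol 2 did so in 7 members (9.09%). In lists described below, ethanol 1 was lowest in 66.7% of translation factors and 52.5% of cytosolic ribosomal protein genes. The share was 46.3% in respiratory chain genes and 28.0% in assembly and RNA modification factors. Of the 21 members lower without overlap, where the lowest array must be 1 of the 2 ethanol arrays, it was ethanol 1 in 17. The large subunit had ethanol 1 lowest in 33 of 48 genes (68.8%) and the small subunit in 13 of 29 (44.8%). Against control 1 and control 2, ethanol 1 was lower in 54 members each, beside 42.1% and 42.5% of all genes. Ethanol 2 was lower in 41 and 31 members, beside 51.8% and 53.9% of all genes. Ethanol 1 was also lower than ethanol 2 in 54 members, beside 41.6% of all genes. The median over the members was -0.065 for ethanol 1 minus ethanol 2. It was -0.078 for ethanol 1 minus control 1 and -0.071 for ethanol 1 minus control 2.

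**Figure D3:**
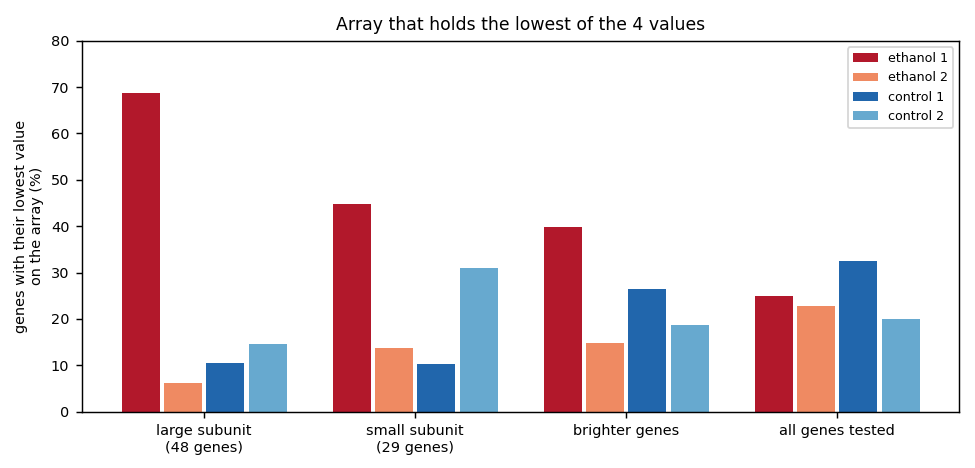
Percentage of genes whose lowest value of the 4 lies on each array, for the large subunit, the small subunit, the 9969 genes at or above the median level and all 19938 genes. The bar of ethanol 1 reaches 68.8% in the large subunit, 44.8% in the small subunit, 39.9% in the brighter genes and 24.9% in all genes.

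Large and small subunit genes did not differ beyond the spread of the arrays. The median log2 difference, ethanol minus control, was -0.031 over the 48 large subunit genes and -0.022 over the 29 small subunit genes, or -0.0091 for large minus small. With each gene centred on its mean over the 4 arrays, the large subunit median was -0.060 on ethanol 1 and 0.020 on ethanol 2, against 0.032 on control 1 and 0.0088 on control 2. That of the small subunit was -0.027 and 0.011 in ethanol against 0.020 and -0.0083 in control. The SD between replicate arrays was 0.041 for the large and 0.024 for the small subunit medians and 0.021 for their difference. Without ethanol 1 the large subunit median was 0.018 and the small -0.0039, and without ethanol 2 they were -0.095 and -0.039. Large minus small thus turned to 0.022 without ethanol 1 and was -0.056 without ethanol 2. Without control 1, the pool with the highest muscle markers, the medians were -0.014 and -0.026, and large minus small turned to 0.012.

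**Figure D4:**
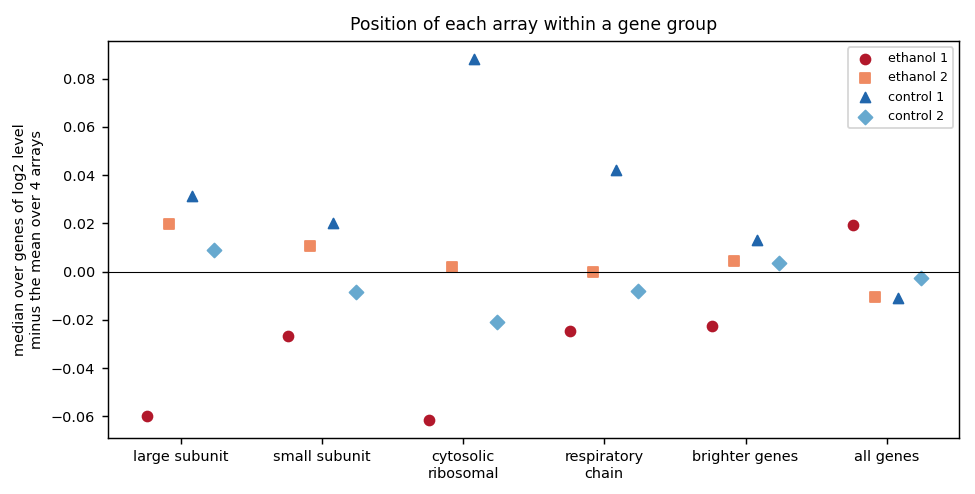
Median over genes of the log2 level minus each gene's mean over the 4 arrays, by array, for both subunits and 4 wider gene groups. Ethanol 1 is the lowest array in all groups but all genes tested, where it is the highest at 0.019, and control 1 is the highest in the other groups, at 0.088 for the cytosolic ribosomal proteins.

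In lists drawn up by bacterial counterpart, the 29 large subunit genes listed with one had a median of -0.053 and the 17 measured without one -0.020. In the small subunit the order was the other way, with 0.0091 over 16 genes listed with a counterpart and -0.049 over 10 listed without. The 10 include Mrps18b, at -0.16, although it descends from bacterial S18. Mrps18a, Mrps30, Mrps36, Mrpl55 and Mrpl58 were in none of these lists. Below 0 were 8 of those 10 and 8 of the 16, beside 45.8% of all genes. All ethanol values were above all control values in 0 of the 10 and 5 of the 16, beside 17.4% of all genes, and below them in 2 of the 10 and 4 of the 16, beside 14.0%. Ethanol 1 was the lowest array in 4 of the 16 and in 7 of the 10. No p is given for these groups, whose members are not replicates.

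More than 1 probe set read 8 members, and in 5 of these both gave the same sign. Mrps5 stood at 0.14 and 0.10 on the log2 scale on its brighter and dimmer probe sets, Mrpl41 at 0.097 and 0.095, Mrpl23 at -0.080 and -0.081, and Mrps36 at 0.055 and 0.025. The sign differed in Mrps33, near 0 at -0.016 and 0.0015, and also in Mrpl27, at -0.082 and 0.079, and in Mrpl51, at 0.078 and -0.071, so the direction of these genes depends on the probe set. The second probe set of Mrpl47, at 5.36 to 5.39 on all arrays, lay below the lower quartile. Mrpl53 shares its probe set with Ccdc142 and was left out of the members.

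Proteins of the same ribosome that carry other names had 4 of 4 differences below 0, none of which passed the test. Ethanol 1 was the lowest array in 4 of 4, and the median log2 difference of ethanol 2 was 0.0088 from control 1 and -0.0082 from control 2. Chchd1, a small subunit protein, had log2 levels of 9.13 and 9.24 in ethanol against 9.47 and 9.36 in control, a difference of -0.23 ± 0.08 (SE; limma adjusted p = 0.980). Gadd45gip1, a large subunit protein, stood at -0.16 ± 0.11, Ptcd3, a pentatricopeptide repeat protein of the small subunit, at -0.11 ± 0.11, and Dap3, a GTP-binding small subunit protein first found in cell death, at -0.034 ± 0.075. Groups were separate in Chchd1 only, beside 14.0% of all genes in the lower direction.

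The wider machinery of mitochondrial translation was likewise without a called gene. Of 25 assembly and RNA modification factors, 9 were below 0 (median log2 difference 0.022), with Mtg1, a GTPase of large subunit assembly, at -0.22 ± 0.12 (SE) and Mrm2, a methyltransferase of the large ribosomal RNA, at 0.17 ± 0.08. Of 15 translation factors 12 were below 0 (median -0.057), with Mtfmt, which formylates the initiator tRNA, at -0.15 ± 0.07. Tsfm, the exchange factor of the elongation factor Tufm, was the highest of these at 8.15 and 8.18 in ethanol against 7.96 and 7.95 in control, a difference of 0.21 ± 0.07 (limma adjusted p = 0.980). Of 19 mitochondrial aminoacyl-tRNA synthetases 12 were below 0 (median -0.041), between Vars2 at -0.17 ± 0.07 and Mars2 at 0.19 ± 0.07. Of 14 regulators of mitochondrial transcription, DNA copying and biogenesis 4 were below 0 (median 0.045), between Gabpa at -0.14 ± 0.08 and the DNA polymerase subunit Polg2 at 0.17 ± 0.09.

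Cytosolic ribosomal proteins and the nuclear subunits of the respiratory chain had medians like those of the members. Of 59 cytosolic ribosomal protein genes 41 were below 0 (median log2 difference -0.044), between Rpsa at -0.39 ± 0.14 (SE) and Rps3 at 0.15 ± 0.08. Control 1 was the highest array in 39 of these 59 genes (66.1%), against 21 of the 77 mitochondrial ones (27.3%). It was the highest in 26.8% of all genes and 36.4% of the brighter genes. Of 82 respiratory chain genes 51 were below 0 (median -0.020), between Uqcr11 at -0.64 ± 0.12 and the complex I subunit Ndufa1 at 0.35 ± 0.11. Limma called 0 genes in each of these lists after adjustment. The 15 listed genes of the mitochondrial DNA hold the messages this ribosome reads and its RNAs. Of these, 0 were matched by a probe set with 1 symbol, so they could not be analysed.

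**Figure D5:**
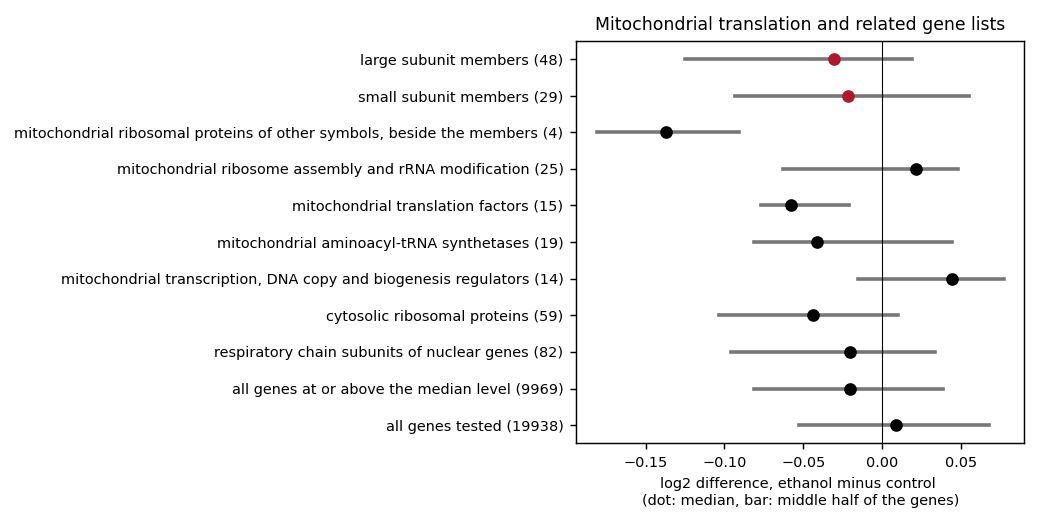
Median (dot) and lower to upper quartile (bar) of the log2 difference, ethanol minus control, over the genes of the lists drawn, with the number of genes measured in brackets. The lists lie between -0.14, for the 4 ribosomal proteins of other names, and 0.045, for the 14 regulators, and the bars span 0 except for the ribosomal proteins of other names and the translation factors.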

How the data were processed

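The deposited table gives 1 log2 value per probe set and array (35556 probe sets, 4 arrays). The log base was taken from the range of the values, 4.84 to 15.5. Per the submitters' processing notes the software was Partek 6.6. How background, scale and probe summary were handled is not stated there, and dim values may depend on it. Probe sets with 1 symbol numbered 21789, with several 1621 and with none 12146. Symbols were updated by Entrez identifier (RefSeq table, GRCm38.p6), 21698 were matched, and the brightest probe set stood for a gene. The table has 0 columns of other samples.

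Limma 3.58.1 (R 4.3.3, lmFit and eBayes without trend, two-sided, Benjamini-Hochberg over all 19938 genes) compared ethanol with control on 2 residual and 5.65 total degrees of freedom. It was first tried on simulated data with 2 arrays a group. There it found 0% of the genes shifted by a fold of 1.2. The share found was 38% at a fold of 1.5 and 98% at folds of 2 and 4, and 5 unchanged genes were called. The simulated noise was independent between arrays, and genes of all these folds were planted together, which eases the adjusted cutoff. These shares may therefore not hold for the real arrays. A count of 0 called members therefore excludes changes neither near a fold of 1.2 nor near a fold of 1.5. The members and lists were chosen with earlier results of these data known. Named members were the 5 lowest and 5 highest differences of each subunit, a set chosen for their roles, those with several probe sets, and the lowest and highest gene of each other list. Levels, ± values (SE of the fit) and differences are on the log2 scale. Alternatives were other scalings, other uses of a gene's probe sets, only the brighter genes, other variance settings, replicate blocks, subunits by structure, and each array left out.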

Additional observations from a re-analysis of the deposited data

How the results depend on the processing

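The numbers 0 of 77 members and 0 of 19938 genes called at an adjusted p under 0.05 were the same under all alternatives run, except that 0 to 4 of all genes were called with an array left out (4 without control 2). Members at an unadjusted p under 0.05 (3) became 5 among the brighter genes (beside 4.59% of these), 7 in the ordinary test (3.85% of all genes), 2 with the replicate number as a block (1.34%) and 8 with crossed pairing (7.34%). Leaving out an array gave 0 (without ethanol 1 or control 1, beside 1.14% and 1.37% of all genes) to 10 members (without ethanol 2, beside 8.54%). The labels give the numbers no shared litter or day. Deviations of same-numbered arrays correlated at -0.484 over genes, and crossed pairing was therefore added after the data were seen. Members past a fold of 1.2 (2) became 1 among the brighter genes, Mrpl54, lower in ethanol beside 2.01% of these. Without ethanol 1 neither Mrps26 (-0.16) nor Mrpl54 (-0.17) was past that fold. The number also moved with other arrays left out, and no share of all genes is given for that. Separate groups (21 lower, 9 higher) became 13 and 14 after quantile normalization once more, and ranged from 24 to 50 lower and 16 to 29 higher with an array left out, where overlap is less likely by construction. Beside these, 27.7 to 32.4% of all genes were lower and 26.4 to 44.9% higher, and without ethanol 2, 19 members were higher beside 44.9%. The large subunit median ranged from -0.095 to 0.018, the small from -0.039 to -0.0039, and large minus small from -0.056 to 0.022, with -0.039 among the brighter genes. Of 32 named members, 11 changed sign with an array left out. Their ranges were -0.033 to 0.033 for Mrpl11, -0.043 to 0.23 for Mrpl14, -0.13 to 0.029 for Mrps2, -0.19 to 0.017 for Mrps18a, -0.11 to 0.084 for Mrps18c, -0.025 to 0.36 for Mrps21, -0.039 to 0.061 for Mrps22, -0.068 to 0.20 for Mrps27, -0.087 to 0.028 for Mrps30, -0.094 to 0.037 for Mrps34 and -0.0051 to 0.12 for Mrps36. Mrps18c also turned, to 0.011, after quantile normalization. The cause was not tested. Subunits assigned by structure, median centring and averaging a gene's probe sets kept the direction of the 3 medians. Arrays limit precision: 2 a group.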
